A study of Mus musculus with 6 samples.

Results

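The genes of B cell receptor (BCR) signalling were read in B1a cells sorted from the peritoneal cavity of 2 genotypes of mice, *p40-/-IL-2Rα-/-* (knockout) and *p40-/-IL-2Rα+/-* (control). The set has 38 genes, chosen by name for their place in the pathway, among the 18246 genes that could be tested. Each gene was read from its brightest non-control probe. All 38 were measured, 37 under their current symbol and *Syk* under its older name *Sykb*, matched by RefSeq transcript.

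The 6 samples came from 7-week-old female mice on the C57Bl/6 background, 3 per genotype, each pooled from several mice and hybridized to its own one-colour Agilent array. Both genotypes lack p40, the shared subunit of IL-12 and IL-23 encoded by *Il12b*. The knockout samples also lack IL-2Rα (CD25), while the control samples keep 1 functional copy of it, so the controls are not wild-type mice. The knockout mice develop autoimmune cholangitis, and the cells were sorted as CD5 and CD11b positive B cells. The IL-2Rα and p40 deletions are carried by every cell of the animal.

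The BCR pairs a surface immunoglobulin with the signalling chains CD79A and CD79B. Antigen binding lets Src family kinases and SYK phosphorylate these chains and the adaptor BLNK, which brings BTK and phospholipase Cγ2 together. Calcium then activates calcineurin and NFAT, diacylglycerol activates RasGRP3 and protein kinase Cβ, and the BCL10 and MALT1 complex carries the signal to NF-κB. B1a cells are a self-renewing B cell lineage of the body cavities, known for natural antibodies and for a muted response to BCR ligation.

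Values are log2 signals relative to the 75th percentile of the array, and differences are knockout minus control from a limma fit over all genes tested, with Benjamini-Hochberg adjusted p-values. Errors, intervals and p-values of other probes come from a separate limma fit over all 24744 probes tested. Neither deletion appeared as an absent signal. In controls the *Il2ra* probe read 1.13 to 1.62, and in knockout 1, 2 and 3 it read -0.31, -0.59 and 0.86. The *Il12b* probe ranged from -2.52 to -1.80 over all 6 arrays. Whether these probes lie inside the deleted parts is not given in the sources used here. Of the cell type markers, 10 of 10 B cell genes and 8 of 8 B1a genes tested were well above background on every array. So were 9 of 10 T cell and 14 of 15 macrophage markers tested, so detection alone does not set the B cell genes apart. The 75th percentile of processed signal was 131, 66.5 and 162 for knockout 1, 2 and 3, below the 252 to 272 of the controls. Because RNA came from bulk sorted cells, fewer cells of a type and less RNA per cell cannot be told apart.

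No BCR signalling gene passed the adjusted p of 0.05, a threshold that 0.0384% of all genes passed as higher and 0% as lower. The lowest adjusted p of a member on its representing probe was 0.105, for *Bcl10*. The other probe of *Nfatc3*, which was higher, had a limma adjusted p of 0.0925. The study used a 2-fold change together with an unadjusted p no greater than 0.05. At that threshold 1 member was higher, *Rasgrp3*, where the background was 2.25% of all genes. No member was lower at that threshold, with a background of 1.26%. At the unadjusted p alone, 3 members were higher (*Rasgrp3*, *Vav3* and *Pik3ap1*) and 6 were lower (*Bcl10*, *Malt1*, *Cd81*, *Ppp3ca*, *Fyn* and *Vav1*). These are 7.89% and 15.8% of the members, against 11.6% and 13.6% of all genes. *Fyn* was tested on the strength of its control arrays, and the filter on all 6 arrays drops it. With that filter 3 of 36 members were higher (8.33%, against 13.3% of all genes). Lower were 5 of 36 (13.9%, against 14.9% of all genes). These counts changed under normexp background correction with the 75th percentile. There 3 members were called higher and 12 of 38 lower at the adjusted p, against 16.4% and 19.1% of all genes, and none reached 2-fold.

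The 3 knockout arrays lay above all 3 control arrays for 6 members, with a background of 14.7%, and below them for 10 members, with a background of 21.6%. In direction, 28 members were lower and 10 higher, with a median difference of -0.17, against 60.2% lower and a median of -0.12 over all genes. That background holds for genes that passed the filter on dim probes. With no such filter 34.0% of all genes were lower and their median was 0.40, while the members kept 28 lower and -0.17. The count of lower members was 23 with quantile normalization and 24 with the deposited log2 values, where the median was -0.06 and -0.08, beside -0.07 and -0.08 over all genes. With normexp and the 75th percentile it was 28, with a median of -0.42 over members and -0.10 over all genes. Array by array, knockout 2 was the lowest of the 3 knockout arrays for 31 of the 38 members (81.6%), but for 45.8% of all genes tested. It was also the dimmest array. Without knockout 2 the median over members was -0.06, beside -0.08 for all genes, and 26 members were still lower. Leaving out knockout 2 moved the difference of 18 members by over 1.5 times or turned it, and each other array did so for 4 to 10. Quantile normalization did so for 27 members and normexp with the 75th percentile for 32, in 24 of them to a larger difference. The part of array brightness in these differences was not tested.

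**Figure D1:**
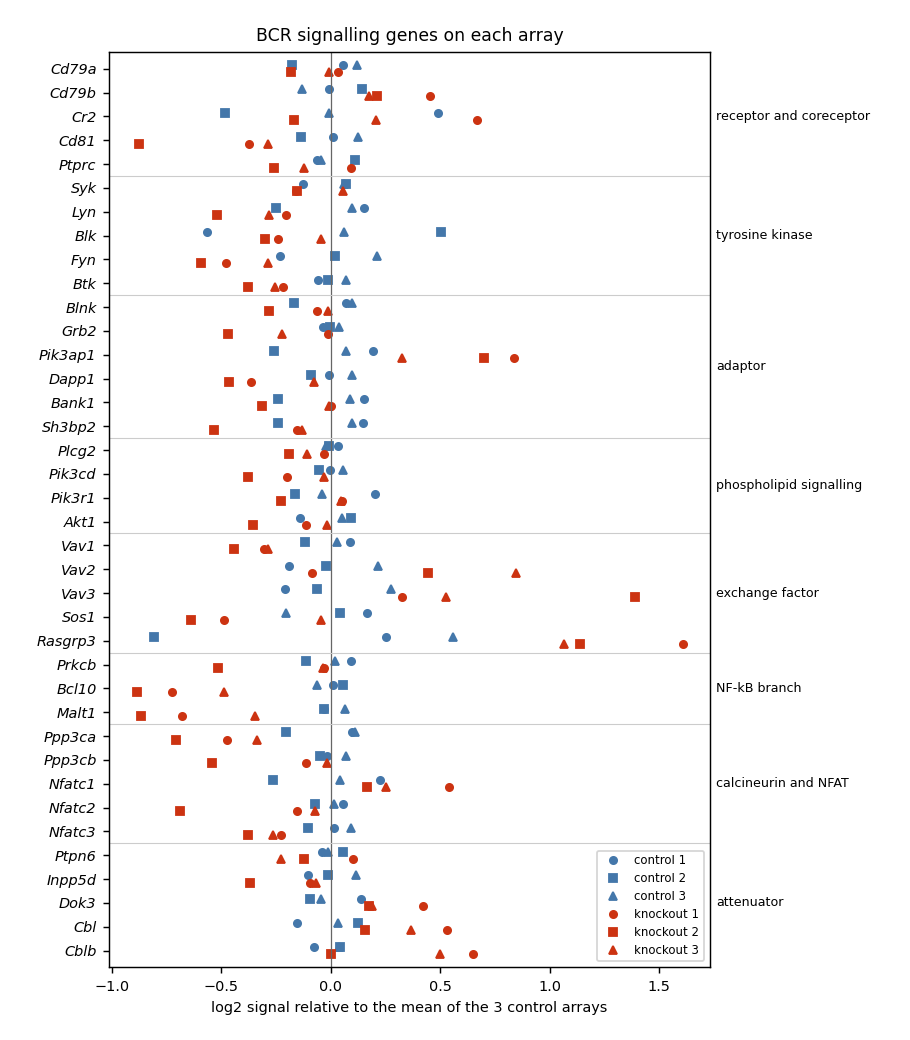
Signal of each of the 38 genes on the 6 arrays, as log2 relative to the mean of the 3 control arrays (blue, controls; red, knockouts; the symbol gives the replicate), with genes grouped by role. The square of knockout 2 is the lowest of the 3 knockout symbols in 31 genes, and *Rasgrp3* spans the widest range.

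The level of signal moved with direction. Of the 32 members whose mean lay at or above the 75th percentile, 26 were lower in knockout cells, with a median difference of -0.19. Of the 6 dimmer members, 4 were higher, with a median of 0.51. All genes tested split the same way. Of the brighter genes 71.0% were lower, with a median of -0.18, and of the dimmer genes 55.6% were higher, with a median of 0.08. The dimmer members were *Fyn*, *Pik3ap1*, *Vav2*, *Vav3*, *Sos1* and *Rasgrp3*, so the 3 members that were higher at the unadjusted p all belonged to them. Over all genes tested, 16.1% of the dimmer and 8.46% of the brighter genes were higher at that p.

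Shown first are the probes of the members with the lowest adjusted p (*Bcl10*) and the largest difference (*Rasgrp3*) on representing probes. Those of a gene with opposed probes (*Nfatc3*) follow, since each value is the signal of 1 such sequence. Each line gives the last 30 bases of a 60-base probe, and the position is that of the whole probe in mm9 as the array files give it. The *Bcl10* probe lies at chr3:145596846-145596905, the *Rasgrp3* probe at chr17:75928310-75928369, and the *Nfatc3* probes at chr8:108654316-108654375 (brighter on average) and chr8:108615965-108616024. No letters are in capitals because no part of a probe is set apart.
Bcl10: aaaggatgttatcttggcagggcatcactt
Rasgrp3: tgataaggaagacaaaatgtaccttcaatg
Nfatc3, representing probe: cagtgctcctatacaaagggaagatgagcc
Nfatc3, other probe: tatttacgacctcatgcattttaccaggtg

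Among receptor and coreceptor genes, the signalling chains themselves showed small differences. *Cd79a* differed by -0.05 (95% interval -0.40 to 0.30) and *Cd79b* by 0.28 (-0.08 to 0.64), both in units of log2. *Cd79b* was 9.03, 9.18 and 8.90 in control and 9.49, 9.25 and 9.21 in knockout samples, which did not overlap. That order turned under quantile normalization, where *Cd79b* was lower by a difference of -0.18, and it also turned with the deposited log2 values and under both normexp settings. *Cd81* encodes a tetraspanin of the B cell coreceptor complex and was the only gene of this group with an unadjusted p of at most 0.05. Its signal was 6.11, 5.96 and 6.22 in control and 5.72, 5.22 and 5.81 in knockout samples, so all 3 knockout arrays lay below all control arrays. The difference was -0.51 (SE 0.19, limma adjusted p = 0.171), or 1.43-fold lower, and was -0.33 without knockout 2. *Cr2*, the complement receptor CD21, varied widely within genotypes, with an SD of 0.49 in control and 0.42 in knockout samples (n = 3 each), and its difference of 0.24 had an interval from -0.48 to 0.95. *Ptprc*, which encodes the phosphatase CD45 that releases Src family kinases, differed by -0.10.

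Of the 5 tyrosine kinases, the 4 detected on every array were lower in knockout cells by differences from -0.33 for *Lyn* to -0.08 for *Syk*, and none passed the adjusted p. *Syk* reached 0.01 after scaling on the median of detected probes. *Lyn*, the Src family kinase with both activating and inhibitory roles in B cells, differed by -0.33 (-0.74 to 0.07) with overlapping arrays. *Btk*, which activates phospholipase Cγ2, was 4.40, 4.44 and 4.53 in control and 4.23, 4.07 and 4.20 in knockout samples. Its groups did not overlap and the difference was -0.28 (SE 0.13, limma adjusted p = 0.222), but -0.09 with quantile normalization. *Fyn* was -2.92, -2.66 and -2.48 in control and -3.17, -3.28 and -2.97 in knockout samples. The 3 control arrays, but 1 of 3 knockout arrays, detected it well above background, so its level in knockout cells is near the detection limit. Its direction turned with normexp and the 75th percentile. *Blk* had a control spread from 2.37 to 3.44 and a difference of -0.20, which was -0.48 without control 1 and 0.06 without control 2.

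Of 6 adaptors, 5 were lower by -0.30 to -0.11 and 1 was higher. *Blnk*, the scaffold for BTK and phospholipase Cγ2, differed by -0.12 (-0.48 to 0.24). *Pik3ap1* encodes BCAP, which links the BCR to PI3K. It was -1.44, -1.89 and -1.56 in control and -0.80, -0.93 and -1.31 in knockout samples, with every knockout array above every control array. The difference was 0.62 (SE 0.20, limma adjusted p = 0.139), 1.54-fold higher. It ranged from 0.24 to 0.77 over 19 other settings and kept its sign in all of them. *Dapp1*, *Bank1* and *Sh3bp2*, further adaptors of PI3K and SYK signalling, and *Grb2* overlapped between genotypes.

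The 4 genes of phospholipid signalling had differences from -0.20 for *Pik3cd* to -0.04 for *Pik3r1*. *Plcg2*, the phospholipase of the pathway, was 6.59, 6.55 and 6.53 in control and 6.52, 6.37 and 6.44 in knockout samples. These groups did not overlap, but the difference of -0.11 had an interval from -0.42 to 0.19. *Pik3cd* encodes the p110δ catalytic subunit and *Pik3r1* the p85α regulatory subunit of PI3K, and *Akt1* the kinase downstream of them. A difference of 2-fold lay outside the 95% interval of all 4 genes on their representing probes. Another *Pik3cd* probe differed by -0.44 with an interval from -1.01 to 0.13, which includes 2-fold lower.

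The exchange factors, which load small GTPases, moved in both directions. *Rasgrp3*, the diacylglycerol-responsive activator of Ras in B cells, was -1.23, -2.30 and -0.93 in control and 0.12, -0.35 and -0.42 in knockout samples. All knockout arrays lay above all control arrays, with control 2 far below the other controls. The difference was 1.27 (SE 0.36, interval 0.43 to 2.11, limma adjusted p = 0.123), 2.41-fold higher. Without control 2 it was 0.87, and *Rasgrp3* then no longer reached 2-fold. With normexp it was 0.86 after scaling on the 75th percentile and 0.67 after quantile normalization.

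The *Vav* genes encode exchange factors that are phosphorylated by SYK. *Vav1* was 5.99, 5.78 and 5.93 in control and 5.60, 5.46 and 5.61 in knockout samples, which did not overlap, and its difference was -0.35 (SE 0.14, limma adjusted p = 0.184). A second *Vav1* probe gave -0.36. *Vav3* was -2.62, -2.48 and -2.14 in control and -2.09, -1.02 and -1.89 in knockout samples. Its groups stood apart by a narrow margin, and its difference was 0.75 (SE 0.29, limma adjusted p = 0.182), or 0.43 without knockout 2. *Vav2* differed by 0.40 (-0.19 to 0.99) with overlapping arrays, from 0.18 without knockout 3 to 0.64 without knockout 1, and 0.15 with array weights. *Sos1*, the Ras activator bound by GRB2, differed by -0.39 and was detected on 2 of 3 knockout arrays, having entered the fit through the control arrays. With normexp and the 75th percentile it turned to 0.37.

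**Figure D2:**
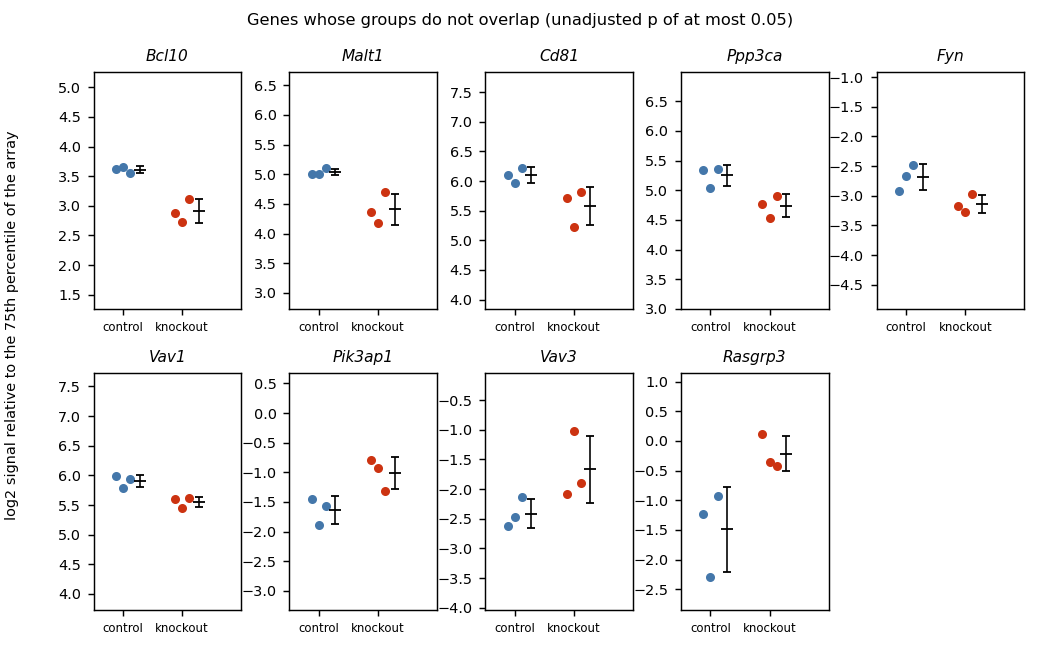
The 9 genes with an unadjusted p up to 0.05, all of which had groups without overlap. Each panel spans the same log2 range and shows the 3 control arrays (blue), the 3 knockout arrays (red) and the mean with SD (black). *Bcl10* and *Malt1* have close control values, and *Rasgrp3* has 1 low control.

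The 3 genes of the NF-κB branch, *Prkcb*, *Bcl10* and *Malt1*, were all lower. *Bcl10* was 3.62, 3.66 and 3.55 in control and 2.88, 2.72 and 3.12 in knockout samples. The control arrays were close together and every knockout array lay below them. The difference was -0.70 (SE 0.15, interval -1.06 to -0.34, limma adjusted p = 0.105), 1.63-fold lower. *Malt1*, the paracaspase that binds BCL10, was 5.01, 5.01 and 5.11 in control and 4.36, 4.18 and 4.70 in knockout samples. It too had no overlap, with a difference of -0.63 (SE 0.17, interval -1.03 to -0.23, limma adjusted p = 0.122), 1.55-fold lower.

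Both genes were lower in 19 of 19 other settings. For *Bcl10* the differences ran from -0.92 to -0.45 and for *Malt1* from -0.93 to -0.44. They passed the adjusted p in 3 of these settings, which were normexp with the 75th percentile, moderation with a trend and robust estimation, and array weights. In the first, 19.1% of all genes were called lower, and 10 further members were called lower with them, *Cd81*, *Btk*, *Grb2*, *Dapp1*, *Sh3bp2*, *Pik3cd*, *Vav1*, *Ppp3ca*, *Nfatc2* and *Nfatc3*. In the latter 2, 1.39% and 3.47% of all genes were called lower, and *Bcl10* and *Malt1* were the only members called. *Prkcb*, which encodes protein kinase Cβ, differed by -0.19 with overlapping arrays and by -0.03 without knockout 2.

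**Figure D3:**
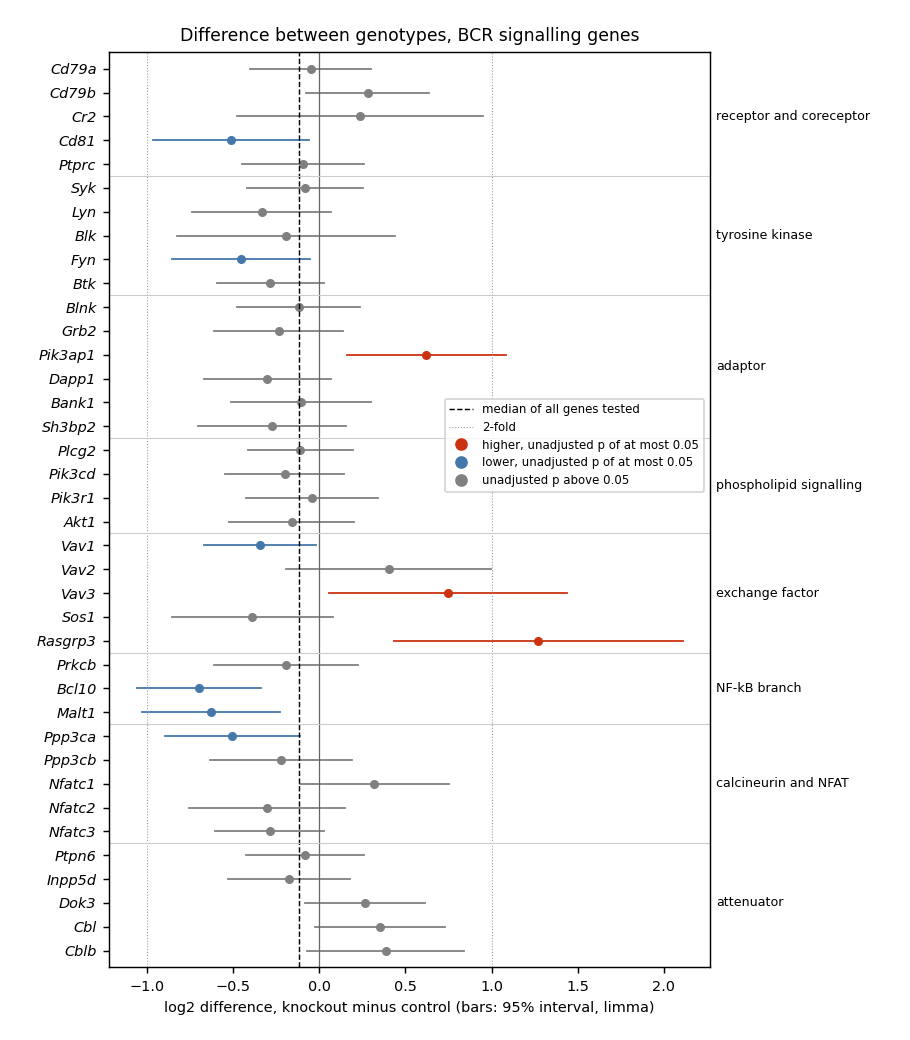
Log2 difference of each gene, knockout minus control, with its 95% interval from limma (red, higher and blue, lower at an unadjusted p of at most 0.05; grey, above it). The dashed line is the median of all genes tested, -0.12, and the dotted lines mark 2-fold.

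In the calcium branch, *Ppp3ca*, the catalytic subunit of calcineurin, was 5.35, 5.04 and 5.36 in control and 4.78, 4.54 and 4.91 in knockout samples. The groups did not overlap and the difference was -0.51 (SE 0.17, limma adjusted p = 0.144). *Ppp3cb*, another catalytic subunit, differed by -0.22 with overlapping arrays and by -0.07 without knockout 2. *Nfatc1* differed by 0.32 (-0.11 to 0.75), and its second probe by 0.34. *Nfatc2* and *Nfatc3* differed by -0.30 and -0.29 on their representing probes, without overlap in either gene. The *Nfatc2* difference was -0.11 without knockout 2.

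The second probes of these 2 genes gave the other direction. On the representing probe *Nfatc3* was 1.90, 1.79 and 1.98 in control and 1.66, 1.51 and 1.63 in knockout samples. On its other probe, 38351 bases away, it was 1.45, 1.06 and 1.42 in control and 2.35, 2.01 and 2.14 in knockout samples. Both probes separated the genotypes, in opposite directions, and both were well above background on every array. The control and knockout means were 1.89 and 1.60 on the representing probe and 1.31 and 2.17 on the other. The 2 probes were thus near in mean brightness, and the choice between them decides whether *Nfatc3* counts as lower or higher.

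The other *Nfatc3* probe differed by 0.86 (SE 0.18, interval 0.45 to 1.27, limma adjusted p = 0.0925), 1.81-fold higher. The log2 ratio of the 2 probes within an array does not depend on the scaling to a percentile. It was -0.45, -0.72 and -0.56 in control and 0.69, 0.50 and 0.52 in knockout samples, a change of 1.15. The 2-sided exact permutation p was 0.1, the smallest that 3 arrays against 3 allow, and 0.75 after adjustment over the 15 pairs of probes. Under 4 other kinds of normalization or background correction, chosen after seeing the data, the change lay between 1.05 and 1.16 without overlap. The unequal change between the probes of *Nfatc3* was thus found on every version of the values tried.

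For *Nfatc2* the other probe lay 59783 bases away and differed by 0.62 (SE 0.31, limma adjusted p = 0.257). It was dim, at -2.48, -2.62 and -2.21 in control and -1.74, -2.49 and -1.23 in knockout samples, and was well above background on 2 of 3 knockout arrays. The within-array ratio changed by 0.92 without overlap (exact permutation p = 0.1, 2-sided), and by 1.24 with normexp and the 75th percentile. With quantile normalization, the deposited values and normexp with quantile normalization it changed by 0.47, 0.48 and 0.26, each with overlap. The separation of the *Nfatc2* ratio was thus lost in 3 of 4 other versions of the values, and that of the *Nfatc3* ratio in none.

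**Figure D4:**
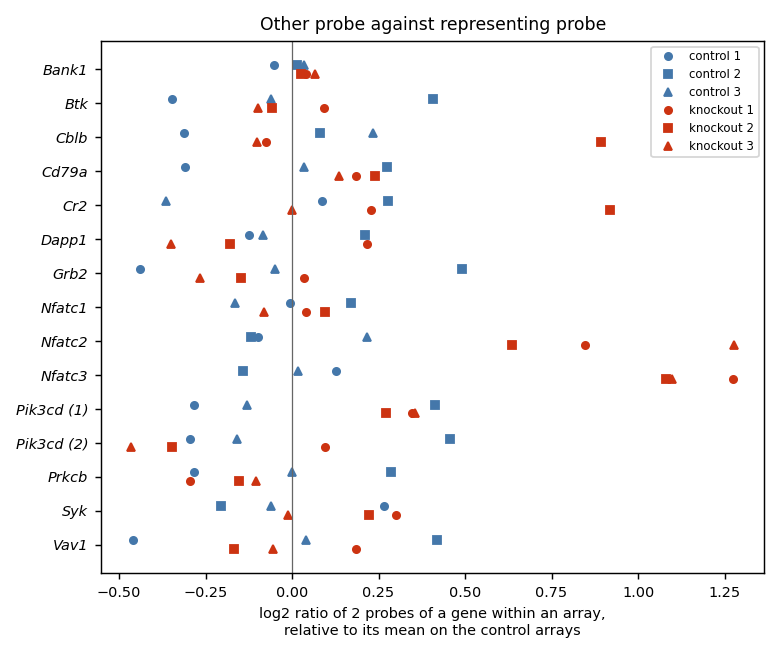
Log2 ratio of the other probe to the representing probe of the same gene within each array, relative to its mean on the control arrays, for the 15 pairs of probes. The knockout arrays (red) stand apart from the control arrays (blue) in 2 pairs, *Nfatc2* and *Nfatc3*, by 0.92 and 1.15.

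Over all 15 other probes of 14 genes, 10 had the sign of the representing probe. The 5 with the other sign belonged to *Nfatc2*, *Nfatc3*, *Cd79a* (0.13), *Pik3cd* (0.12, while its remaining probe gave -0.44) and *Syk* (0.09). For the last 3 genes the probes differed by less than 0.5 and their ratios overlapped between genotypes. The other 24 members had a single probe.

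Among the attenuators of the pathway, 3 of 5 were higher, none with an unadjusted p below 0.05 on its representing probe. The unadjusted p of all 3 was below 0.05 under quantile normalization (*Dok3* 0.41, *Cbl* 0.46 and *Cblb* 0.53), scaling on the median of detected probes, the deposited values, normexp with quantile normalization and array weights. Their limma adjusted p under quantile normalization was 0.206, 0.169 and 0.180, and none of the 3 passed the adjusted p in any of the 19 other settings. The share of all genes past the unadjusted p was not counted in these settings. The ubiquitin ligase genes *Cbl* and *Cblb*, whose products mark active kinases for degradation, differed by 0.35 (-0.03 to 0.73) and 0.38 (-0.07 to 0.84). A second, dimmer *Cblb* probe gave 0.62 (0.10 to 1.15) without overlap. *Cbl* was 1.15, 1.43 and 1.34 in control and 1.83, 1.46 and 1.67 in knockout samples, without overlap, and both genes were higher in 19 of 19 other settings. The differences of *Cbl* and *Cblb* were smallest, at 0.14 and 0.13, under normexp with the 75th percentile. *Dok3*, an inhibitory adaptor, was 5.46, 5.23 and 5.28 in control and 5.75, 5.50 and 5.51 in knockout samples. Its groups also stood apart, with a difference of 0.26 that was -0.06 under normexp with the 75th percentile. *Ptpn6* and *Inpp5d*, which encode the phosphatases SHP-1 and SHIP-1 recruited by inhibitory receptors, differed by -0.08 and -0.18 with overlapping arrays.

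**Figure D5:**
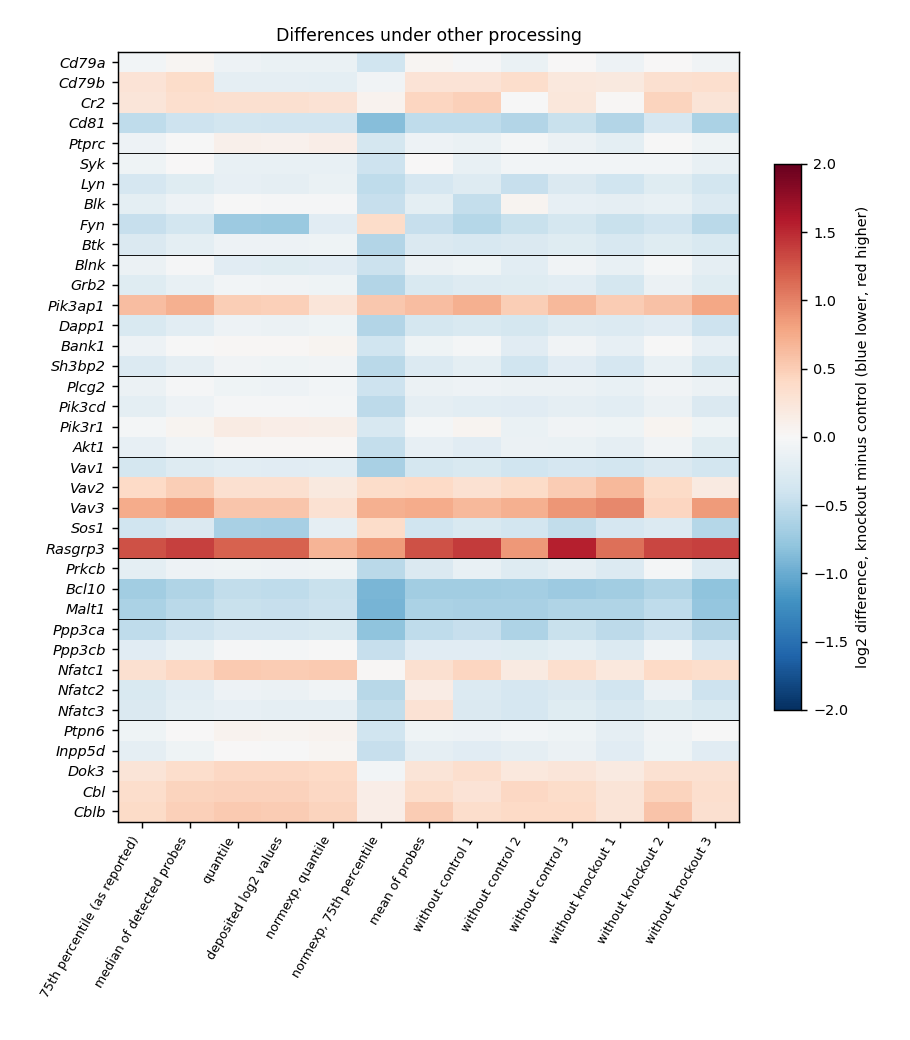
Log2 difference of each gene (colour, blue lower and red higher in knockout cells) as reported and under 12 other settings for scaling, background correction, probe choice and left-out arrays. *Bcl10*, *Malt1*, *Cd81*, *Vav1* and *Ppp3ca* are lower and *Rasgrp3*, *Vav3* and *Pik3ap1* higher in every column.

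Other genes of the pathway were read by the same fit from a list that does not overlap the 38. Of 80 tested, 17 were higher and 63 lower, with the same median of -0.17 as the members. Over all genes tested 60.2% were lower, with a median of -0.12, and over the brighter genes 71.0%, with a median of -0.18. At the 2-fold threshold 2 of the 80 were higher, *Cblc* (1.22) and *Nfatc4* (1.06), and 0 were lower, against 2.25% and 1.26% of all genes. None passed the adjusted p in this limma fit, while 5 higher and 13 lower of the 80 reached the unadjusted p of 0.05, against 11.6% and 13.6% of all genes. Of 14 inhibitory receptor genes of B cells, *Cd72* alone passed the 2-fold threshold, with a difference of 1.42 (limma adjusted p = 0.0940). Among 18 immediate early genes that BCR signals induce, such as *Egr1* (-0.33), *Fos* (-0.22), *Myc* (-0.34) and *Nr4a1* (0.29), 9 were higher and 9 lower. None of these reached 2-fold, and *Nr4a2* was the only one with an unadjusted p of at most 0.05 (0.69, limma adjusted p = 0.107).

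Several members are also expressed by other B cells, T cells and macrophages, so markers of those cells are given beside them. Of 5 markers of conventional (B2) cells, 3 were higher and 2 lower, with a median of 0.13. *Ccr7* (0.65, limma adjusted p = 0.130, no overlap) and *Fcer2a* (0.61, limma adjusted p = 0.180) were higher at the unadjusted p of 0.05, and none was lower at it. Of 8 B1a markers, *Bhlhe41* (0.55) and *Spn* (0.42) were higher and *Cd9* (-0.48) and *Ctla4* (-0.44) lower at that p. *Itgam*, which encodes the CD11b used in the sort, differed by 0.79 without reaching that p. It was 4.37, 4.21 and 4.05 in control and 4.73, 5.86 and 4.40 in knockout samples. Its groups thus stood apart by a narrow margin, with knockout 2 far above the others. Of 10 B cell markers, *Pax5* (0.57) was higher and *Ebf1* (-0.46) lower at that p. Of 16 T cell markers, 10 could be tested, of which 8 were higher and 2 lower, *Cd3g* (-0.28) and *Cd2* (-0.15). At the 2-fold threshold 3 were higher, *Thy1* (2.13), *Cd3d* (1.41) and *Zap70* (1.23). The summed linear signal of the T cell markers ranged from 223 to 304 times the 75th percentile in knockout and from 268 to 282 in control samples, but *Cd2* alone made up 206 to 287 and 259 to 268 of it. At a mean of 8.05 in control samples *Cd2* was brighter than the B cell gene *Cd79a* (7.25), so it may not mark T cells in these sorted cells. Without *Cd2*, a split made after seeing the data, the sum ranged from 14.6 to 17.6 in knockout and from 9.26 to 15.6 in control samples. Of the 16 markers, 3 were well above background on no array. Of 15 macrophage markers tested, 14 were lower, and *Lyz2* (-1.08) and *Mrc1* (-1.08) passed the 2-fold threshold. The summed signal of these ranged from 35.3 to 76.6 in knockout and from 40.9 to 95.7 in control samples. Among knockout arrays, knockout 2 was the highest for each macrophage marker tested except *Mrc1*, such as *Marco* (4.31, against 1.64 and 1.68). Of 4 granulocyte and mast cell markers tested, 3 were lower and none reached the unadjusted p of 0.05. Of 8 NK cell markers, 5 were well above background on no array. The 2 tested were higher, *Gzma* (1.44) and *Prf1* (0.15), and neither reached the unadjusted p of 0.05. All 7 plasma cell markers tested were lower, and *Jchain* (-1.92) passed the 2-fold threshold. The part of these cells in the differences of the BCR genes was not tested.

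The sequence upstream of the start sites was read for the members with the lowest adjusted p and the largest difference on representing probes. The lines show the 250 bases before each RefSeq start (GRCm38.p6), for *Bcl10* at chr3:145924012-145924261 and for the 2 starts of *Rasgrp3* at chr17:75435655-75435904 and chr17:75465288-75465537, all on the plus strand. Capitals mark matches on either strand to GGAAA, the core bound by NFAT, and to GGGNNNNNCC, a pattern like NF-κB sites.
Bcl10: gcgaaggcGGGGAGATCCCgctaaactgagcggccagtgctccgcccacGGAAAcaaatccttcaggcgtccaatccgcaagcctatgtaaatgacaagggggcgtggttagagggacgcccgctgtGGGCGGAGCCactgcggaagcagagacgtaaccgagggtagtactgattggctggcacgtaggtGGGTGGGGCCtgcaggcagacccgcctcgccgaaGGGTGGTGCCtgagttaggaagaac
Rasgrp3, first start: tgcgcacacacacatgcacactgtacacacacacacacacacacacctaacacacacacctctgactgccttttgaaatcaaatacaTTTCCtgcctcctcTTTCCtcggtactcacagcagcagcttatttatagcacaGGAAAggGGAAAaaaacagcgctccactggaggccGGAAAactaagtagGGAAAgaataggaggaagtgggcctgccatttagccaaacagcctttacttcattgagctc
Rasgrp3, second start: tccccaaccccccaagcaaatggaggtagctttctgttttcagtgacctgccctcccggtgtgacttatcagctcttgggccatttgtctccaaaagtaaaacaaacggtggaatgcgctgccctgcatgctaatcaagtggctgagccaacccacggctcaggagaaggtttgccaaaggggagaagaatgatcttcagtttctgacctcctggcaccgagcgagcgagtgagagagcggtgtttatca

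*Bcl10* had 6 matches, 2 of them overlapping, the first window of *Rasgrp3* had 6, all GGAAA, and the second had 0. GGAAA was present in 57.8% of the 45 windows of 32 members and in 55.6% of all 32851 windows. GGGNNNNNCC was present in 57.8% and 45.8%. The octamer ATGCAAAT, a site of B cell OCT factors, was found in 4.44% and 1.60%, for *Blnk* and *Prkcb* among the members. These matches describe letters in a window, and no binding was measured here.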

How the data were processed

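PC B1a cells of 3 knockout and 3 control samples were hybridized by the authors to one-colour Agilent arrays, read with Agilent Feature Extraction 10.7.1.1 (submitters' processing notes). The authors deposited, for each array, spot intensity values (processed, background subtracted, not scaled between arrays; and raw mean and background). They also deposited a table of log2 values that are quantile normalized, used here as an alternative. The depth of an array has no count, and the number of arrays limits the precision.

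Log2 of the processed signal minus the 75th percentile of the 59305 non-control spots was computed, leaving out 163 to 251 outlier spots per array and averaging replicate spots. Probes well above background on all 3 arrays of a genotype and measured on at least 2 of each were tested (24744 of 55681), with the brightest probe per gene (18246 genes). Genotypes were compared with limma 3.58.1 in R 4.3.3, without covariates. P-values measure the spread between these samples, which may be technical, since the labels do not tie each array to a separate experiment. On simulated data made from these arrays, 26.5% of genes changed by 1 log2 unit and 81.5% of those changed by 2 units were recovered after adjustment, and 49% and 98% at the 2-fold threshold.

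The members and the gene lists were chosen with earlier results of these data known. Per-array values are given for members past a threshold or, at an unadjusted p of at most 0.05, without overlap, and for others where groups or probes stood apart. Other pathway genes are named where past 2-fold, and *Btk*, *Cd79b*, *Plcg2*, *Cbl*, *Dok3*, *Itgam* and the immediate early genes were named after their values were seen. Of all 38 members, 37 were matched by the name in the array files and 1 by accession. Promoter windows were taken from RefSeq. Some genes that the lists cover are not reported here. Alternatives were quantile normalization, normexp (offset 50), scaling on the median of detected probes, the deposited values, other filters, outlier spots kept, mean of probes, the methods' t-test, trend and robust estimation, array weights, a replicate block and each array left out.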

Additional observations from a re-analysis of the deposited data

How the results depend on the processing

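Of 720 values of the 38 members under 19 settings, 40 changed sign, and 22 members kept their direction in all settings that gave a value (7 higher, 15 lower). The cause of a change was not tested unless stated. Quantile normalization turned *Cd79b* (-0.18), *Ptprc* (0.10), *Bank1* (0.027), *Pik3r1* (0.16), *Akt1* (0.025), *Ptpn6* (0.070) and *Inpp5d* (0.0068). Normexp with quantile normalization turned the same 7 (-0.19, 0.13, 0.057, 0.12, 0.017, 0.068 and 0.035 in that order), and the deposited log2 values turned the first 6 (-0.18, 0.088, 0.020, 0.14, 0.016 and 0.062). Scaling on the median of detected probes turned *Cd79a* (0.043), *Syk* (0.0097), *Pik3r1* (0.051) and *Ptpn6* (0.012). Normexp with the 75th percentile turned *Cd79b* (-0.063), *Fyn* (0.37), *Sos1* (0.37) and *Dok3* (-0.061), and array weights turned *Ptprc* (0.011) and *Pik3r1* (0.038). The mean of probes turned *Cd79a* (0.042), *Syk* (0.00065), *Nfatc2* (0.16) and *Nfatc3* (0.28), through the other probes of these genes, which alone gave 0.13, 0.086, 0.62 and 0.86, beside 0.12 for *Pik3cd*.

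Normexp with the 75th percentile called 3 higher and 12 lower members at the adjusted p, where 16.4% and 19.1% of all genes were called, with a median of -0.42 over members, and 7 higher and 25 lower other pathway genes. It called 0 members and 0 other pathway genes as higher at 2-fold, as did normexp with quantile normalization (0 and 0). Trend and robust estimation called 2 lower members at the adjusted p, with 2 higher and 1 lower other pathway genes, and array weights called 2 lower members, with 3 higher and 1 lower. The other pathway genes higher at 2-fold went from 2 to 1 with quantile normalization, the deposited values and the methods' t-test, and to 3 with scaling on the median of detected probes and with no filter on dim probes. That t-test called 1 member at 2-fold and 0 after adjustment. The filter on all 6 arrays left out *Fyn* and *Sos1*.

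Leaving out each array gave 0 to 1 members higher at 2-fold, 0 only without control 2. It gave 1 to 4 other pathway genes higher, with 4 without knockout 3 and 1 without control 2, control 3, knockout 1 or knockout 2, and 0 to 1 lower, with 1 without control 3. The median over members ran from -0.23 to -0.065, the latter without knockout 2. Differences ran from -0.14 to 0.013 for *Cd79a*, -0.0054 to 0.48 for *Cr2*, -0.48 to 0.056 for *Blk* and -0.13 to 0.058 for *Pik3r1*. Samples with the same replicate number had deviations that correlated at 0.187, 0.0569 and 0.0940, so the numbers were not taken as pairs. With the replicate block, 0 members passed the adjusted p and 1 passed 2-fold, and *Bcl10* had an adjusted p of 0.124. The change of the *Nfatc2* probe ratio was 0.92 as reported and 0.47, 1.24, 0.26 and 0.48 with quantile normalization, normexp with the 75th percentile, normexp with quantile normalization and the deposited values.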
